A study of Homo sapiens with 4 samples.

Results

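The 4 mature miRNAs hsa-miR-191-5p, hsa-miR-425-5p, hsa-miR-423-5p and hsa-miR-423-3p, which are widely used as small RNA references, were followed through the extracellular vesicles (EVs) of MDA-MB-231 cells, an established human triple-negative breast cancer line with a wild-type label. They were taken by name from the deposited counts, and all 4 were among the 539 miRNAs listed for both library preparations, of 1619 listed for either. Small RNA sequencing covered 4 libraries in 2 groups. In the group 231 EV, cells grown to 90% confluence were kept for 12 h in EV-free DMEM, and in the group 231 -G EV they were kept for 12 h in a glucose-free medium. Before that, all cells grew in DMEM with 10% serum. Each group had a replicate 1 and a replicate 2, and the number also marked the preparation. For replicate 1, RNA was pretreated to remove modifications that block adapter ligation or reverse transcription, and inserts of 14 to 40 nt were kept. For replicate 2 the labels name an NEBNext small RNA kit for the libraries and also a TruSeq kit for the RNA, whose role here is unclear, and the study's methods describe the NEBNext kit for small RNA without separating the replicates. Each number therefore named a pair with 1 library per medium, and whatever else set the replicates apart cannot be told apart from the preparation. No label said that the cultures were separate.

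A reference miRNA serves as the denominator in quantitative PCR or in a panel, so a change of its own is passed on to every miRNA divided by it. A miRNA is cut from a hairpin whose 5′ and 3′ arms (5p and 3p) can both give a mature strand of about equal length. Bases 2 to 8 of that strand, the seed, select the targets. MiR-191 and miR-425 come from neighbouring hairpins of the same strand, and miR-423 gives both of its arms. In the EVs of cultured cells such miRNAs can come from the cells or from the medium. Sequencing of bulk EVs gives shares of the reads, so a fall of a miRNA cannot be told apart from a rise of others. Shares do not show the number of EVs, which the study reported to be higher under glucose starvation.

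The mature sequences are printed because they show that the seeds of miR-191-5p, miR-423-5p and miR-423-3p differ from each other, and that miR-423-5p shares its seed with miR-3184-5p and has its reverse complement in miR-3184-3p. They are from RefSeq (GRCh38.p14), where 3 of the 4 members matched. MiR-425-5p is given by name only. The seed is in capitals.
miR-191-5p: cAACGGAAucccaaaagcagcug
miR-423-5p: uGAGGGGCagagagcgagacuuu
miR-423-3p: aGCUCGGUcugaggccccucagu
miR-3184-5p: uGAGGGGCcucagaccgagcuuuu
miR-3184-3p: aAAGUCUCgcucucugccccuca

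MIR191 (chr3:49020618-49020709, minus strand) and MIR425 (chr3:49020148-49020234, minus strand) are 383 bases apart, and each lies in intron 1 of all 4 DALRD3 transcripts that span it in GENCODE 29. MIR191 is also in intron 1 of an NDUFAF3 transcript on the opposite strand. MIR423 (chr17:30117079-30117172, plus strand) lies in an intron of NSRP1 in 11 of 12 spanning transcripts and overlaps an exon of the other. Within the hairpins, miR-191-5p is at chr3:49020672-49020694, miR-423-5p at chr17:30117095-30117117 and miR-423-3p at chr17:30117131-30117153. Each is 23 bases long. Their GC content was 52.2%, 56.5% and 65.2%, against a median of 52.2% over the 1423 listed miRNAs that had a RefSeq sequence. The miR-191-5p and miR-423-3p seeds were found in no other mature sequence of the RefSeq table. The miR-423-5p seed was shared with miR-3184-5p, a product of the MIR3184 hairpin antisense to MIR423, and miR-3184-3p was the exact reverse complement of miR-423-5p over 23 bases. MiR-3184-3p was listed for replicate 1 at 0 reads in both libraries, where the limit taken for a count of 0, 3 reads, came to 163 and 192 CPM.

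Levels are given as CPM, the reads of a miRNA per 1000000 miRNA reads of its library, with 95% Wilson intervals that cover counting error only. Library totals were 18397 (231 EV) and 15597 (231 -G EV) reads in replicate 1 and 224966 and 170894 in replicate 2, so that 1 read was worth 54.4 and 64.1 CPM, and 4.45 and 5.85 CPM. The libraries stood apart by preparation. MiR-182-5p held 51.0% of 231 EV replicate 1 and from 0.250% to 2.73% of the other three, and miR-451a, the red blood cell miRNA, held 19.4% and 40.8% of replicate 1 against 0.131% and 0.0398% of replicate 2. The 5 miRNAs listed as high in MDA-MB-231 (miR-21-5p, miR-221-3p, miR-222-3p, miR-100-5p and miR-29a-3p) were above 0 in each library and summed to 2.14% and 3.10% in replicate 1 and to 40.6% and 38.0% in replicate 2. The 3 red blood cell or serum markers summed to 20.0% and 42.8%, against 0.218% and 0.0679%. Every marker list, these and those that follow, was higher in 231 -G EV of pair 1 and lower in that of pair 2. The 5 white blood cell or platelet miRNAs, of which miR-150-5p was at 0 in 231 EV replicate 1, summed to 0.163% and 0.539% in replicate 1 and to 1.52% and 0.737% in replicate 2. The 5 epithelial miRNAs summed to 0.0924% and 0.526%, then 0.0373% and 0.0187%, and the 1 liver miRNA to 0.0924% and 0.308%, then 0.132% and 0.0527%. The part of these differences in the results below was not tested. Where a result turned on the totals, it is given again without miR-182-5p and miR-451a.

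MiR-191-5p was the most abundant of the 4 in every library. It had 31 reads or 1685 CPM (1187 to 2391) in 231 EV and 94 reads or 6027 CPM (4928 to 7369) in 231 -G EV of replicate 1. In replicate 2 it had 3247 reads or 14433 CPM (13949 to 14935) and 2278 reads or 13329.9 CPM (12797 to 13885). Both libraries of replicate 2 were above both of replicate 1, and the media overlapped.

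MiR-425-5p, from the neighbouring hairpin, had 6 reads or 326 CPM (149 to 711) in the 231 EV library of replicate 1 and 21 reads or 1346 CPM (881 to 2058) in its 231 -G EV library. In replicate 2 it had 1220 reads or 5423 CPM (5128 to 5735) and 751 reads or 4395 CPM (4092 to 4719). Its libraries stood in the same order as those of miR-191-5p.

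MiR-423-5p had 11 reads or 598 CPM (334 to 1070.5) and 21 reads or 1346 CPM (881 to 2058) in replicate 1, and 242 reads or 1076 CPM (949 to 1220.0) and 333 reads or 1949 CPM (1750.4 to 2169) in replicate 2. It was the only member that was higher in 231 -G EV in each pair and higher in replicate 2 in each medium. Its counting intervals in the 2 preparations of a medium overlapped.

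MiR-423-3p had 8 reads or 435 CPM (220.4 to 858) and 29 reads or 1859 CPM (1295 to 2669) in replicate 1, and 152 reads or 676 CPM (576 to 792) and 138 reads or 808 CPM (684 to 954) in replicate 2. Its highest value was in 231 -G EV of replicate 1, unlike that of the other members.

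**Figure D1:**
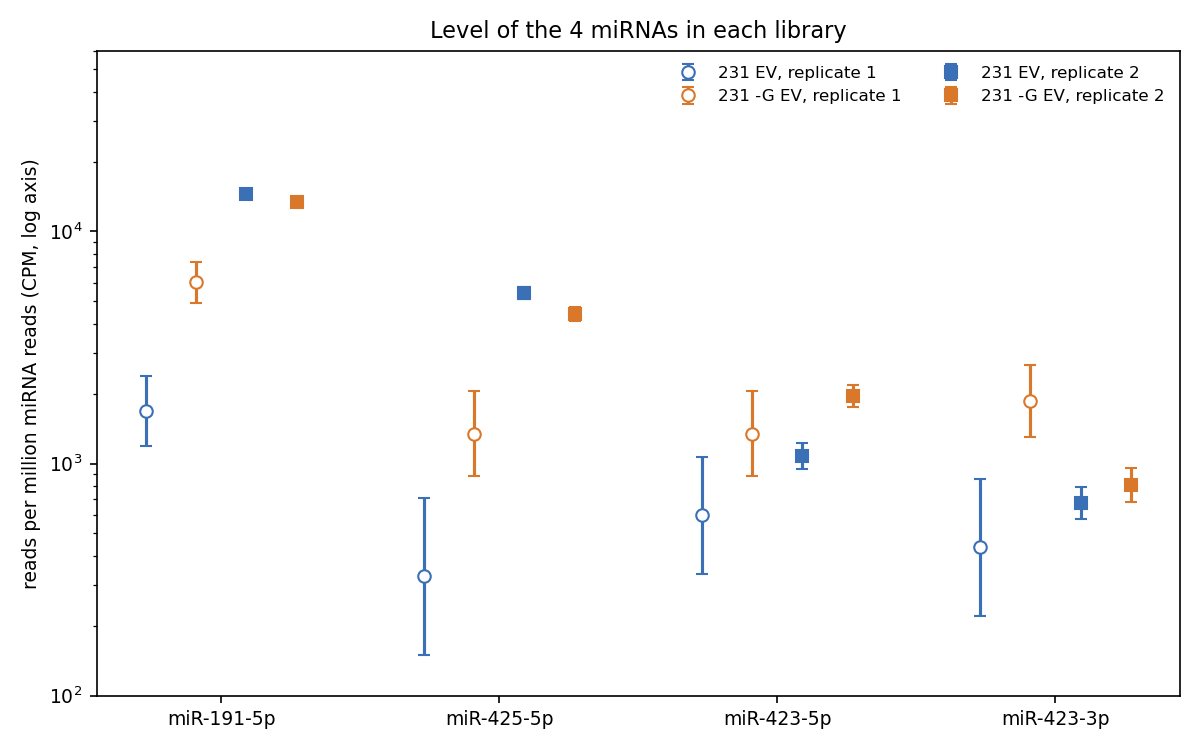
CPM of the 4 miRNAs (log axis) in 231 EV (blue) and 231 -G EV (orange), with open circles for replicate 1, filled squares for replicate 2 and bars for the 95% Wilson interval of counting error. MiR-191-5p and miR-425-5p sit higher in both libraries of replicate 2 than in either of replicate 1, while miR-423-3p peaks at 1859 CPM in 231 -G EV of replicate 1.

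In both libraries of replicate 2 the order was miR-191-5p, miR-425-5p, miR-423-5p and miR-423-3p, and the 95% exact interval of the ratio of reads between neighbours excluded 1 at each step. In replicate 1 the lead of miR-191-5p excluded 1, at 2.82-fold (1.38 to 6.21) over miR-423-5p in 231 EV and 3.24-fold (2.12 to 5.10) over miR-423-3p in 231 -G EV. The other three could not be ordered there. MiR-425-5p was lowest in 231 EV replicate 1, at 6 reads, and it was tied with miR-423-5p at 21 reads in 231 -G EV. Together the 4 miRNAs held 0.304% and 1.06% of the reads in replicate 1, and 2.16% and 2.05% in replicate 2. These shares turn on the totals, since miR-182-5p and miR-451a together held 70.4% and 43.5% of replicate 1 against 0.385% and 0.290% of replicate 2.

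To ask whether the members held steady when glucose was withdrawn, shares were compared within each pair by a two-sided Fisher's exact test on reads, with Benjamini-Hochberg adjustment over all miRNAs of the pair that had a read. Such a test compares 2 libraries, not 2 media. In pair 1, 3 of the 4 members were higher in 231 -G EV past an adjusted p of 0.05 and 0 were lower, while 7.91% of 670 miRNAs were called higher and 1.79% lower. Many of the 670 had few reads, and of the 79 miRNAs with at least 5 reads in every library, 65 had a ratio above 1 in this pair. MiR-191-5p was 3.58-fold higher (95% exact interval 2.36 to 5.56, adjusted p = 1.1e-09 by Fisher's exact test). MiR-425-5p was 4.13-fold higher (1.61 to 12.5, adjusted p = 0.017), and miR-423-3p was 4.28-fold higher (1.91 to 10.8, adjusted p = 0.0013). MiR-423-5p had a ratio of 2.25 (1.04 to 5.17), which did not pass (adjusted p = 0.249).

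In pair 2, with its deeper libraries, the pattern was another. MiR-191-5p was lower in 231 -G EV at a ratio of 0.924 (0.875 to 0.975, adjusted p = 0.021 by Fisher's exact test), and miR-425-5p was lower at 0.810 (0.739 to 0.888, adjusted p = 4.5e-05). MiR-423-5p was higher at 1.81 (1.53 to 2.15, adjusted p = 2.0e-11). MiR-423-3p had a ratio of 1.20 (0.942 to 1.51, adjusted p = 0.443), so a rise of more than 1.51-fold or a fall below 0.942 lay outside its interval. The count of 1 member higher and 2 lower stood beside 9.87% of 618 miRNAs called higher and 8.74% called lower.

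The pairs were then set against each other by an exact test of equal ratios (Zelen's test), adjusted over the 295 miRNAs that both pairs detected. For 3 of the 4 members the ratio differed between the pairs, against 13.9% of the 295 miRNAs. The adjusted p was 6.7e-11 for miR-191-5p, 0.0013 for miR-425-5p and 0.013 for miR-423-3p. MiR-423-5p was the exception (exact p = 0.71 before and 1 after adjustment), and its pair ratios of 2.25 and 1.81 had overlapping intervals. A p that misses the threshold does not show that these ratios were equal.

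In pair 1 the share of miR-182-5p fell from 51.0% to 2.73%. With that miRNA left out of the totals, the ratio of miR-191-5p in pair 1 came down to 1.80 (1.19 to 2.80, adjusted p = 0.0498 by Fisher's exact test). MiR-425-5p then had 2.08 (0.812 to 6.30, adjusted p = 0.604) and miR-423-3p 2.15 (0.961 to 5.45, adjusted p = 0.414), neither past the threshold. MiR-423-5p stood at 1.13 (0.523 to 2.61). The difference between the pairs was kept by miR-191-5p (adjusted p = 0.015 by Zelen's exact test) and lost by miR-425-5p (0.275) and miR-423-3p (0.721). In pair 2 the same change of totals left all 4 ratios within 0.001 of their values.

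Read against miR-16-5p, which the study names with U6 among its RT-qPCR normalisers, each member's ratios in the 2 pairs lay further apart. MiR-16-5p itself had 70 and 40 reads in pair 1, a ratio of 0.674 (0.445 to 1.01), and 15834 and 18955 reads in pair 2, a ratio of 1.58 (1.54 to 1.61). Per read of miR-16-5p, miR-191-5p was 5.31-fold higher (2.92 to 9.69) in 231 -G EV of pair 1 and lower, at 0.586 (0.553 to 0.621), in pair 2. MiR-425-5p had 6.13 (2.13 to 19.9) and 0.514 (0.468 to 0.565). MiR-423-5p had 3.34 (1.36 to 8.45) and 1.15 (0.970 to 1.36, adjusted p = 0.319 by Fisher's exact test). MiR-423-3p had 6.34 (2.50 to 17.4) and 0.758 (0.597 to 0.962), and the second did not pass (adjusted p = 0.085 by Fisher's exact test).

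**Figure D2:**
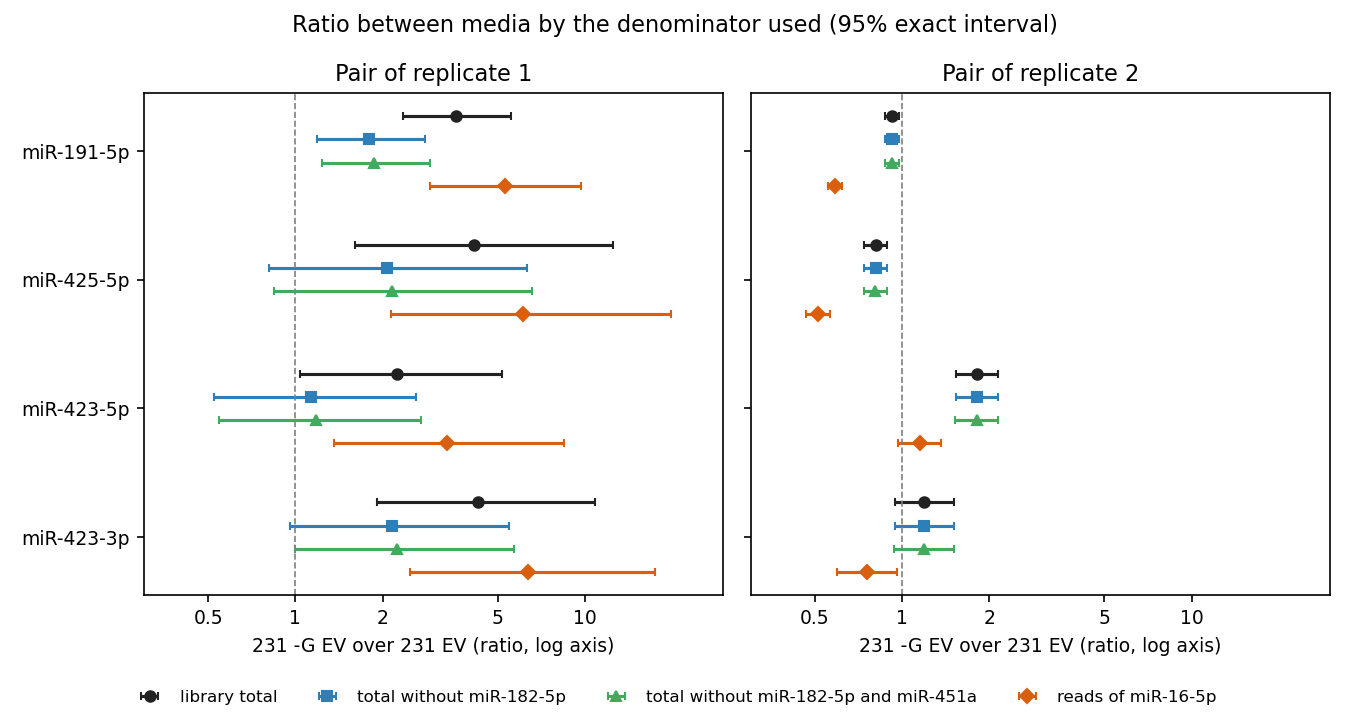
Ratio of 231 -G EV over 231 EV (log axis) for each miRNA in the pair of replicate 1 (left) and of replicate 2 (right), by the denominator used, with 95% exact intervals of counting error and a dashed line at a ratio of 1. In pair 1 the points lie above 1 under each denominator, and in pair 2 miR-191-5p and miR-425-5p lie below 1 under each.

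Across both pairs, with the spread between replicates in the error, the quasi-likelihood test of edgeR, blocked by replicate number, called 0 of 384 miRNAs for the medium (0.0%). At an unadjusted p under 0.05 it had 5, of which 0 were members, and DESeq2 and limma also called 0. The log2 fold changes of 231 -G EV over 231 EV were 0.83 (SE 0.91) for miR-191-5p, 0.71 (SE 0.99) for miR-425-5p, 1.00 (SE 0.98) for miR-423-5p and 1.08 (SE 1.03) for miR-423-3p, beside a median of 0.20 over the 384 miRNAs. The adjusted p was 0.999 for each by edgeR. With standard errors near 1 on the log2 scale, estimates of this size could not be told from no change. TMM scaling moved the median to -0.14 and the members to between 0.25 and 0.64.

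The same miRNAs were compared between preparations. In 231 EV, miR-425-5p was 16.6-fold higher in replicate 2 than in replicate 1 (7.62 to 45.4, adjusted p = 4.4e-32 by Fisher's exact test over 424 miRNAs), and miR-191-5p was 8.57-fold higher (6.02 to 12.6, adjusted p = 3.4e-70). MiR-423-5p had 1.80 (0.988 to 3.65, adjusted p = 0.158) and miR-423-3p 1.55 (0.769 to 3.66, adjusted p = 0.504), which did not pass. The 2 of 4 members called higher and 0 lower stood beside 20.5% and 12.5% of all tested.

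In 231 -G EV the shifts of the neighbours were smaller, at 3.26-fold (2.12 to 5.30, adjusted p = 1.0e-09 by Fisher's exact test over 413 miRNAs) for miR-425-5p and 2.21-fold (1.80 to 2.75, adjusted p = 1.2e-16) for miR-191-5p. MiR-423-5p had 1.45 (0.931 to 2.37, adjusted p = 0.207). MiR-423-3p was lower in replicate 2, at a ratio of 0.434 (0.289 to 0.673, adjusted p = 0.00085). So 2 members were called higher and 1 lower, against 15.3% and 17.9% of all tested.

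With miR-182-5p and miR-451a both out of the totals, miR-191-5p was 2.54-fold (1.79 to 3.75) and 1.25-fold (1.02 to 1.56, adjusted p = 0.089 by Fisher's exact test) higher in replicate 2 of 231 EV and 231 -G EV, and miR-425-5p was 4.94-fold (2.26 to 13.5) and 1.85-fold (1.20 to 3.00) higher. On these totals miR-423-5p turned to 0.534 (0.293 to 1.08) and 0.820 (0.527 to 1.34), neither past the threshold. MiR-423-3p had 0.461 (0.228 to 1.09) and 0.246 (0.164 to 0.381).

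Over both media, edgeR called 66 of 384 miRNAs between the preparations (17.2%), 37 higher in replicate 2 (9.64%) and 29 lower (7.55%). Among the members miR-425-5p was called, with a log2 fold change of 2.80 (SE 1.03, adjusted p = 0.043 by edgeR). That call was lost with no filter on low counts (adjusted p = 0.052), with limma (0.099), without miR-451a in the totals (0.308) and without miR-182-5p and miR-451a (0.113). MiR-191-5p had 2.11 (SE 0.93, adjusted p = 0.113) and was called with TMM scaling (adjusted p = 0.0066), with DESeq2 (0.035) and when miRNAs had to be above 0 in all 4 libraries (0.035). Its log2 fold change came down to 1.57 without miR-451a in the totals (adjusted p = 0.550 by edgeR) and to 0.82 without miR-182-5p and miR-451a (0.451). MiR-423-5p had 0.68 (SE 0.98) and miR-423-3p -0.34 (SE 1.03), both with adjusted p over 0.7. Without miR-182-5p and miR-451a they had -0.58 (SE 0.70, adjusted p = 0.633) and -1.61 (SE 0.74, adjusted p = 0.116).

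Beside the members stood 13 other miRNAs used as references in blood, cells or EVs, from a list that was chosen with results of these data known. In pair 1, 12 of them were higher in 231 -G EV and 1 lower, with 4 called higher, where 54.2% of all 670 miRNAs tested were higher and 7.91% were called higher. Of the 54 miRNAs with at least 10 reads in every library, 46 were higher in pair 1, with a median log2 ratio of 0.88, and 24 in pair 2. In pair 2, 8 of the 13 were higher and 5 lower, with 6 called higher and 4 called lower, where 47.9% of 618 were higher, 9.87% were called higher and 8.74% lower. Without miR-182-5p and miR-451a in the totals, 8 of the 13 were higher and 5 lower in pair 1, where 42.2% of all and 26 of the 54 were higher. Then 1 was called higher, miR-25-3p, beside 2.54% of all, and 2 were called lower, let-7a-5p (0.580, adjusted p = 0.036 by Fisher's exact test) and miR-16-5p (0.353, adjusted p = 3.6e-06), beside 5.09%. On library totals their median ratios were 2.17 and 1.32, against 3.85 and 1.06 for the members and 1.18 and 0.938 for all miRNAs tested. In pair 1 the medians without miR-182-5p and miR-451a were 1.14 for the 13, 2.02 for the members and 0.618 for all. Between preparations edgeR called 7 of the 13, each higher in replicate 2, including let-7a-5p, miR-16-5p, miR-93-5p and miR-103a-3p, against 9.64% of the 384 miRNAs. With limma, or without miR-451a in the totals, 0 of these 7 were called (for miR-16-5p, log2 fold changes of 4.82 with adjusted p = 0.057 by limma and 4.29 with 0.070 by edgeR). Without miR-182-5p and miR-451a, 6 of the 7 were called, miR-24-3p was not (adjusted p = 0.091 by edgeR), and miR-320a-3p was called lower (-2.20, adjusted p = 0.014), beside 6.77% of all called higher and 14.3% lower. In 231 -G EV the largest ratio of replicate 2 over replicate 1 among the 13 was that of miR-16-5p, at 43.2 (31.7 to 60.6).

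Stability was summed up, with no test, as the largest absolute log2 ratio over the 4 contrasts, 2 between media and 2 between preparations. Among the 54 miRNAs with at least 10 reads in every library, miR-423-5p ranked 14 (tied with miR-186-5p) with 1.17 and miR-191-5p ranked 35 with 3.10, where rank 1 is the steadiest and the median was 2.27. The 5 lowest were miR-185-5p (0.72), miR-146a-5p (0.79), miR-27b-3p (0.89), miR-128-3p (0.95) and miR-151a-3p (0.96). This list turned over, with 2 of the 5 kept at a minimum of 5 or of 30 reads or with TMM, and 0 kept without miR-182-5p and miR-451a in the totals. MiR-16-5p ranked 49 with 5.43. MiR-425-5p and miR-423-3p had under 10 reads in 231 EV of replicate 1. When 5 reads were enough, 79 miRNAs were ranked, and miR-423-5p ranked 18, miR-423-3p 39 with 2.10, miR-191-5p 50 and miR-425-5p 67 with 4.06.

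Between preparations alone, miR-423-5p ranked 7 of 54 with a largest absolute log2 ratio of 0.85. Between media alone it ranked 34 with 1.17, and miR-191-5p ranked 49 with 1.84. Without miR-182-5p and miR-451a in the totals these were 35 with 0.86 and 36 with 0.91. In a wider ranking of 79 by medium alone, miR-425-5p was at 75 and miR-423-3p at 76, with 2.05 and 2.10. On totals without miR-182-5p and miR-451a these ranks by medium were 57 and 59, with 1.11 and 1.16. Without miR-182-5p and miR-451a in the totals, the ranks over all 4 contrasts among the 79 were 10 for miR-423-5p, 21 for miR-191-5p, 41 for miR-423-3p and 46 for miR-425-5p.

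**Figure D3:**
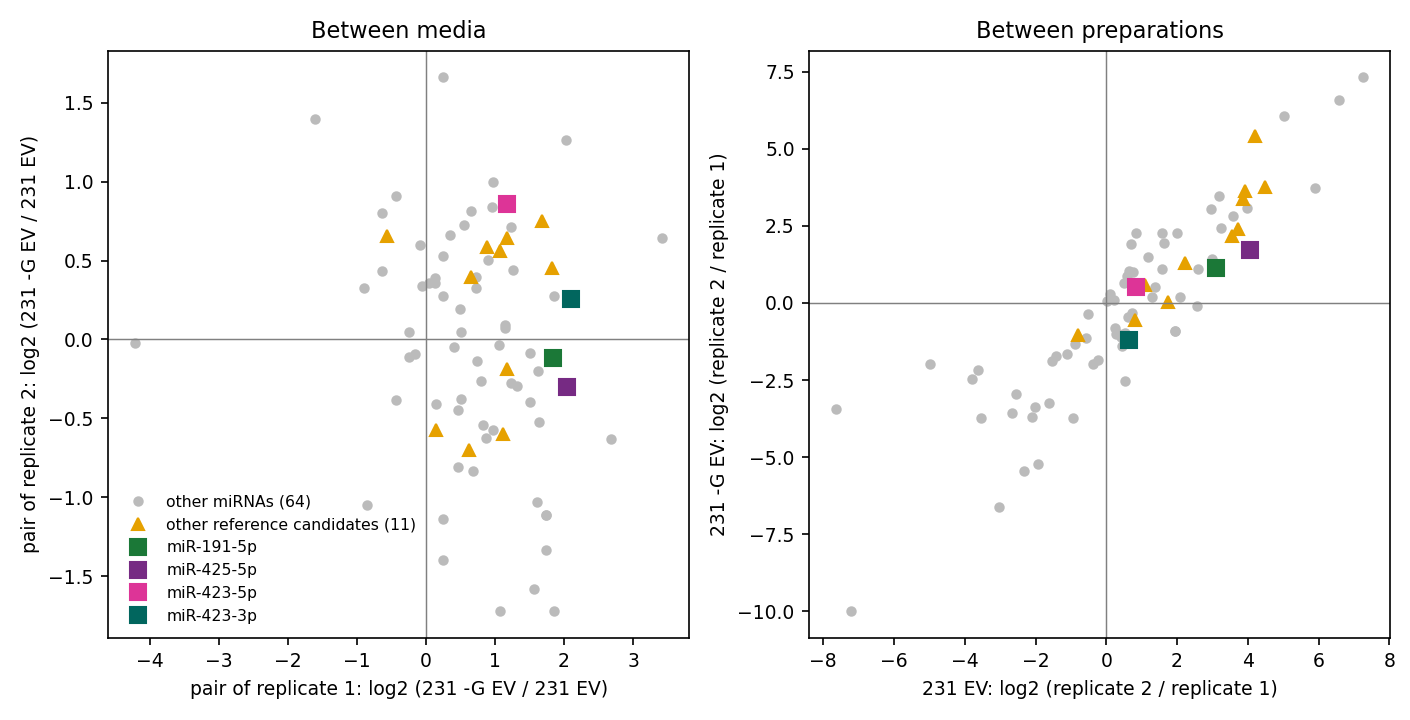
Log2 ratios of the 79 miRNAs with at least 5 reads in every library, between media in pair 1 and pair 2 (left) and between preparations in 231 EV and 231 -G EV (right), with the 4 miRNAs as coloured squares and 11 other reference candidates as triangles. All 4 lie right of 0 between media in pair 1, where 65 of the 79 do. MiR-191-5p and miR-425-5p lie below 0 in pair 2, where 40 of the 79 lie above 0. Between preparations miR-423-5p lies at 0.85 and 0.53.

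A ratio of one miRNA to another within a library needs no library total. The ratio of miR-191-5p to miR-425-5p, the products of neighbouring hairpins, was 5.17 (231 EV) and 4.48 (231 -G EV) in replicate 1, and 2.66 and 3.03 in replicate 2. It was 1.14-fold higher (1.02 to 1.27, adjusted p = 0.026 by Fisher's exact test over 3081 pairs of miRNAs) in 231 -G EV of pair 2. Between preparations its change did not pass, at 0.515 (0.175 to 1.26) in 231 EV and 0.678 (0.398 to 1.11) in 231 -G EV. This was the one ratio of the 6 among the members that did not pass between preparations in either medium.

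The ratios of miR-191-5p or miR-425-5p to an arm of miR-423 moved further. In 231 EV, miR-425-5p rose 10.7-fold against miR-423-3p (3.20 to 37.8) and 9.24-fold against miR-423-5p (3.09 to 30.7) from replicate 1 to replicate 2, and miR-191-5p rose 5.51-fold (2.15 to 12.5) and 4.76-fold (2.13 to 9.87). In 231 -G EV the first 3 of these ratios rose 7.52-fold (4.00 to 14.3), 2.26-fold (1.15 to 4.40) and 5.09-fold (3.12 to 8.10), and miR-191-5p against miR-423-5p had a ratio of 1.53 (0.891 to 2.51), which did not pass. In pair 2, miR-425-5p fell to 0.447 (0.369 to 0.543) and miR-191-5p to 0.510 (0.427 to 0.609) of their level in 231 EV relative to miR-423-5p. Of the 6 ratios, 0 passed in pair 1, 5 in pair 2, 4 between preparations in 231 EV and 4 in 231 -G EV. Over all 3081 pairs the shares were 17.3%, 65.7%, 73.2% and 78.5%.

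**Figure D4:**
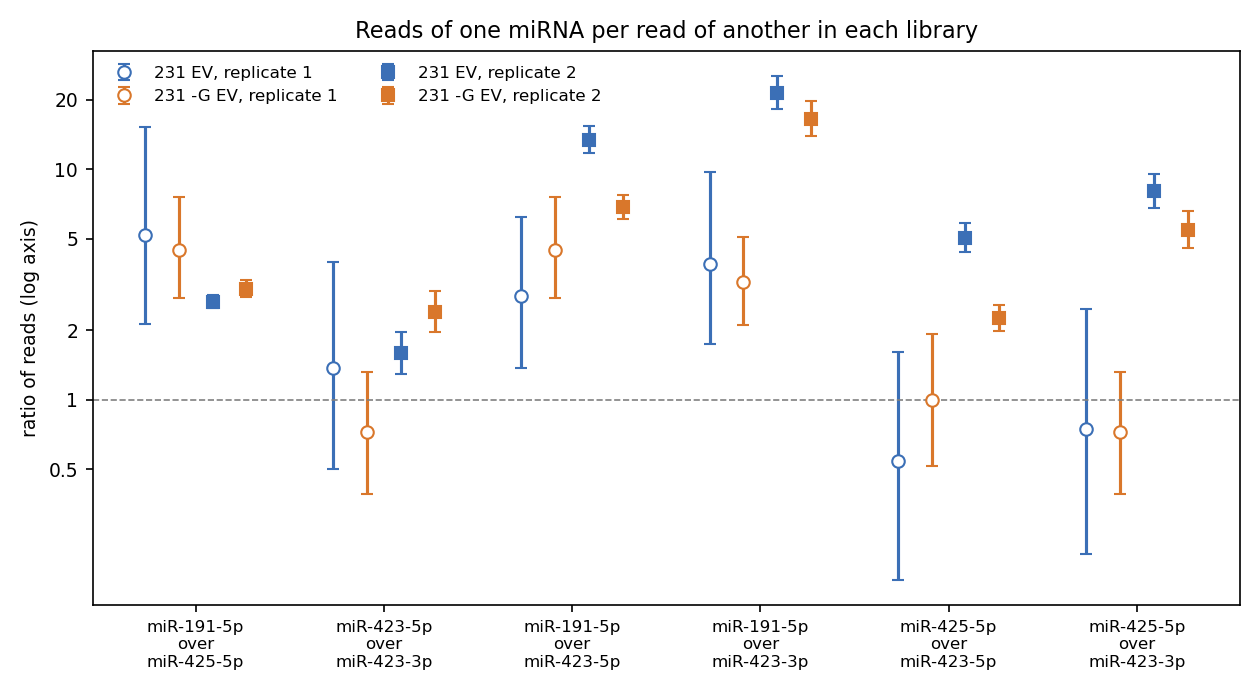
Reads of one miRNA per read of another (log axis) in each library, with 95% exact intervals, open circles for replicate 1 and filled squares for replicate 2, blue for 231 EV and orange for 231 -G EV. MiR-191-5p over miR-425-5p spans 2.66 to 5.17, while miR-425-5p over miR-423-5p spans 0.545 to 5.04 and is highest in 231 EV of replicate 2.

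Both arms of miR-423 were counted, so its 5p share could be followed. The 5p arm held 57.9% (36.3 to 76.9) and 42.0% (29.4 to 55.8) of the hairpin's reads for 231 EV and 231 -G EV, respectively, in replicate 1, and 61.4% (56.5 to 66.1) and 70.7% (66.4 to 74.6) in replicate 2. The share was higher in 231 -G EV of pair 2, with an odds ratio of 1.51 (1.13 to 2.03, adjusted p = 0.028 by Fisher's exact test over 87 hairpins), where 18.4% of hairpins passed. In pair 1 the odds ratio was 0.532 (0.156 to 1.74), and 0 of 45 hairpins passed (0.0%). Between preparations it was 3.32 (1.76 to 6.36, adjusted p = 0.00067) in 231 -G EV, where 20.9% of 67 hairpins passed, and 1.16 (0.395 to 3.24) in 231 EV, where 6.58% of 76 did.

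The other arms of the neighbours were rare. MiR-191-3p had 0 and 0 reads in replicate 1 (the same limits of 163 and 192 CPM), and 8 and 3 in replicate 2, so that the 5p arm held 99.8% and 99.9% there. MiR-425-3p had 0 and 1 reads in replicate 1 and 69 and 95 in replicate 2. The 5p share of miR-425 fell from 94.6% (93.3 to 95.7) to 88.8% (86.5 to 90.7) in 231 -G EV of pair 2 (odds ratio 0.447, 0.319 to 0.625, adjusted p = 1.9e-05 by Fisher's exact test), as miR-425-3p rose 1.81-fold (1.32 to 2.51) and miR-425-5p fell.

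The miRNAs most like each member were found by the Euclidean distance between profiles of log2(CPM + 1), centred over the 4 libraries, among miRNAs with at least 10 reads in each. MiR-191-5p was nearest to miR-26b-5p (0.70), miR-25-3p (0.72) and miR-99b-5p (0.82), against a median distance of 2.35. MiR-425-5p was nearest to miR-30a-5p (0.76), miR-191-5p (0.78) and miR-26b-5p (1.03). MiR-423-5p was nearest to miR-186-5p (0.21), another reference candidate with the same 11 and 21 reads in replicate 1, then to miR-151a-3p (0.32) and miR-128-3p (0.56). MiR-423-3p was nearest to miR-192-5p (0.50), miR-7-5p (0.68) and let-7i-5p (0.84). The arms of miR-423 were 1.25 apart, farther than miR-191-5p and miR-425-5p at 0.78. With 4 libraries that share totals, these distances are a description.

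What a reference does to another miRNA was seen with miR-33a-5p, the EV miRNA that the study followed, chosen here after its values were seen. It had 0 and 4 reads in pair 1, too few for a ratio, and 30 and 40 reads in pair 2. By library total it was 1.76-fold higher in 231 -G EV of pair 2 (95% exact interval 1.07 to 2.92, p = 0.043 by Fisher's exact test, adjusted over the 6 denominators). Adjusted over the 618 miRNAs of the pair, as for the members, it did not pass (adjusted p = 0.104 by Fisher's exact test). Divided by miR-191-5p the ratio was 1.90 (1.15 to 3.17, adjusted p = 0.030 by Fisher's exact test), and by miR-425-5p it was 2.17 (1.30 to 3.63, adjusted p = 0.010). Divided by miR-423-3p it was 1.47 (0.840 to 2.58, adjusted p = 0.274), by miR-16-5p 1.11 (0.676 to 1.85, adjusted p = 0.863) and by miR-423-5p 0.969 (0.570 to 1.66, adjusted p = 0.899). These p-values are adjusted over 6 tests of 1 miRNA that share its reads, and are not on the footing of the calls above. Differences between these 6 ratios follow from the denominators' own ratios above and were not tested separately. The study reported higher EV miR-33a under glucose starvation by RT-qPCR, also against a synthetic standard curve. The reads of 1 pair do not test that result.

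**Figure D5:**
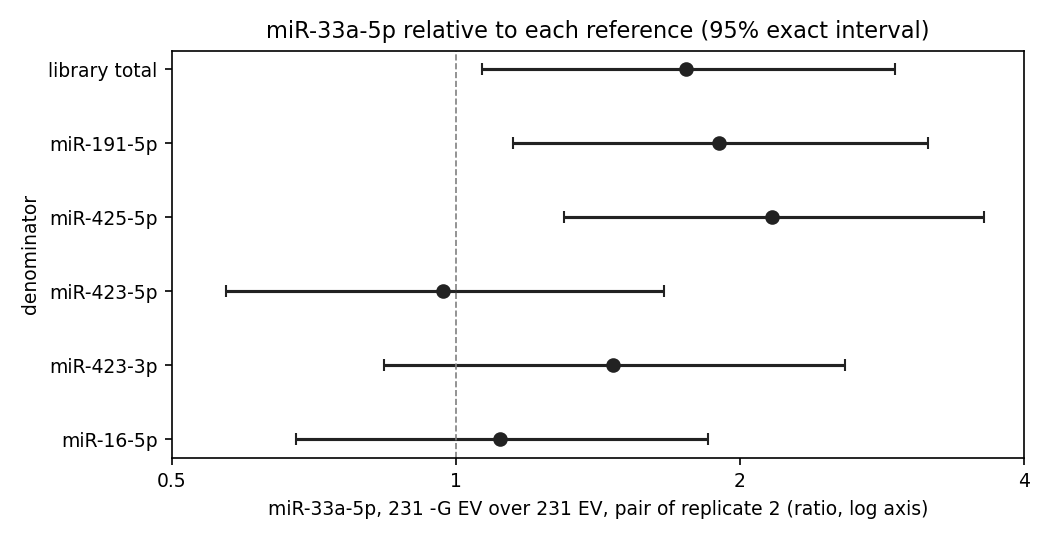
Ratio of miR-33a-5p in 231 -G EV over 231 EV (log axis) in the pair of replicate 2, by the denominator used, with 95% exact intervals of counting error and a dashed line at a ratio of 1. The ratio runs from 0.969 with miR-423-5p to 2.17 with miR-425-5p.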

How the data were processed

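The data were 4 small RNA libraries, 2 per group, with groups and replicate numbers taken from the labels. The authors deposited read counts per mature miRNA, in 1 table for each replicate number, beside values headed CPM (replicate 1) or TPM (replicate 2). The deposited CPM and TPM both equalled reads per 1000000 of the library total within 5.0e-05. The submitters' processing notes name hg38, cutadapt, Bowtie, Bowtie2 and edgeR without roles, and the study's methods describe trimming, removal of other RNA classes and matching to miRBase without separating the preparations.

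The members and lists were chosen with earlier results of these data known. Medium and preparation were tested by edgeR 4.0.16 (R 4.3.3) in 1 quasi-likelihood fit with both as terms, on deposited library totals, over 384 miRNAs listed for both replicates and above 0 in at least 2 libraries. A call needed an absolute log2 fold change over 1 and a Benjamini-Hochberg adjusted p under 0.05. The SE printed for edgeR was derived, as the absolute log2 fold change divided by the square root of the F statistic of its test. The replicate block was kept because the labels tie the number to a preparation, and libraries with the same number deviated together (r = 0.59 over the 384 miRNAs, as deviations from group means). Single contrasts used two-sided Fisher's and Zelen's exact tests on reads (SciPy 1.17.1), with exact conditional intervals. P-values measure the spread between these libraries or, for reads, counting error only, since no molecular identifier is named in the sources and PCR reads may repeat a molecule. The edgeR, Fisher and Zelen tests were tested on simulated data. Alternatives were TMM, DESeq2 1.42.0, limma 3.58.1 on log2(CPM + 1), other filters and other totals. Named miRNAs were the 4 members, their other arms, 13 other reference candidates, miRNAs sharing a member's seed or its reverse complement, the 3 nearest profiles per member, the 5 steadiest miRNAs, miR-182-5p and miR-451a. MiR-33a-5p was added after its values were seen. The counts of the reference candidates and of the steadiest miRNAs on other totals or minimums were also added after the data were seen.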

Additional observations from a re-analysis of the deposited data

Results flagged for a closer look

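For 3 of the 4 miRNAs the ratio of 231 -G EV over 231 EV differed between the pairs by an exact test of equal ratios on reads, adjusted over 295 miRNAs. The adjusted p of this test was 6.7e-11 for miR-191-5p (ratios of 3.58 and 0.924), 0.0013 for miR-425-5p (4.13 and 0.810) and 0.013 for miR-423-3p (4.28 and 1.20). The test covers counting error only, and the pairs differ by preparation, so preparation and replicate cannot be told apart. Among the 13 other reference candidates, 6 differed between the pairs by the same test, beside 13.9% of the 295 miRNAs. Without miR-182-5p and miR-451a in the totals, miR-191-5p still differed (adjusted p = 0.0059 by the exact test) and miR-425-5p (0.210) and miR-423-3p (0.637) did not pass, and 3 of the 13 differed, beside 8.19% of 293.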

How the results depend on the processing

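Of 222 values recomputed under alternatives, 167 kept their direction and side of the threshold or stayed within the spread. A count of calls was included in the 167 if it stayed within a set fold of the main count. Some of the 167 could not have changed, since a read minimum does not alter the log2 ratios of a miRNA that passes it. The cause of the changes in the remaining values was not tested. The shallow replicate 1, with 6 to 31 reads of each miRNA in 231 EV, limits every value that uses it. For the medium, edgeR called 1 miRNA, not 0, with no filter, without miR-182-5p in the totals and without miR-182-5p and miR-451a. Without the replicate block the log2 fold change of miR-425-5p was -0.0041, and miR-191-5p, miR-423-5p and miR-423-3p kept their direction. Among the 13 other reference candidates miR-361-5p turned from 0.26 to -0.035. No call was gained or lost without the block. Leaving out a replicate gave values with no test, from -0.11 to 1.84 for miR-191-5p, -0.30 to 2.05 for miR-425-5p, 0.86 to 1.17 for miR-423-5p and 0.26 to 2.10 for miR-423-3p. No count of calls could be had with 1 pair.

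For the preparation, edgeR called 66 miRNAs, 32 without miR-451a in the totals and 120 without the medium term, and limma called 0 although 161 had an unadjusted p under 0.05. The log2 fold change of miR-191-5p was past the threshold with TMM (2.28), DESeq2 (1.82) and a filter above 0 in all 4 libraries (2.10). That of miR-425-5p was not with limma (2.88), no filter (2.80), without miR-451a (2.27) and without miR-182-5p and miR-451a (1.52), where miR-423-5p turned to -0.58.

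Within pair 1, miR-425-5p was not past the threshold without miR-182-5p (2.08) or without both (2.16), nor was miR-423-3p (2.15 and 2.24). MiR-423-5p was past it without miR-451a (3.06) and per read of miR-16-5p (3.34). TMM sizes gave miR-191-5p 1.99 in pair 1 and 0.870 in pair 2. Per read of miR-16-5p in pair 2, miR-423-5p had 1.15, not past the threshold, and miR-423-3p turned to 0.758. Between the pairs, the ratio of the 2 ratios was not past the threshold without miR-182-5p or without both for miR-425-5p (2.57 and 2.67) and miR-423-3p (1.80 and 1.88), and it turned to 0.627 and 0.652 for miR-423-5p.

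Between preparations, division by miR-16-5p turned the ratio in 231 EV to 0.463 for miR-191-5p, 0.899 for miR-425-5p, 0.0973 for miR-423-5p and 0.0840 for miR-423-3p, and in 231 -G EV to 0.0511 for miR-191-5p, 0.0755 for miR-425-5p and 0.0335 for miR-423-5p. Without miR-182-5p, miR-423-5p turned to 0.884 and miR-423-3p to 0.764 in 231 EV, and without both to 0.534 and 0.461. In 231 -G EV, miR-423-5p turned to 0.857 without miR-451a and 0.820 without both, where miR-191-5p (1.25) was not past the threshold. The largest absolute log2 ratio moved, without both, to 1.35 for miR-191-5p, 0.90 for miR-423-5p and, with 5 reads as the minimum (chosen after seeing the data), 2.30 for miR-425-5p. Divided by miR-423-5p, miR-33a-5p turned to 0.969.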
